A study of Mus musculus with 24 samples.

Results

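Ankrd36, Gng13, Stc1, Trim15, Podxl, C2cd4a, Nacad and Plek2 are 8 genes whose transcripts stood low in mouse bone marrow before bleeding and rose strongly after it. They were chosen by name, among 37008 genes on the array, because their marrow signal was low at 0 h and high at 24 or 48 h, so their rise in marrow is given as a description and no test is attached to it. Every probe named for these genes was followed, 12 of 56605. Each gene is described through its brightest probe, and the other probes of Ankrd36, Stc1 and Podxl are described separately.

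The study measured RNA of liver and bone marrow from male mice that all carried the Erfe-/- genotype. Mice were bled through the retro-orbital sinus and sampled 0, 24 or 48 h later, with the 0 h animals labelled as control, which gave 6 groups of 4 arrays and 24 single-colour arrays in all. No array came from a mouse with an intact Erfe gene, and an unbled group at 24 or 48 h was not analysed here. The age and strain of the mice and the volume of blood taken are not given in the sources used here. There were 4 mice per time. Whether the liver and marrow arrays of 1 number share a mouse is not stated, and p-values measure only the spread between these samples, part of which may be technical.

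Blood loss lowers oxygen delivery, the kidney answers with erythropoietin, and erythropoietin acts on erythroid progenitors of the marrow through the JAK2 kinase and the transcription factor STAT5. Erythroblasts then make erythroferrone, the hormone encoded by Erfe, which lowers hepcidin output by the liver so that more iron reaches the plasma. Among the 8 genes, Plek2 is known as a pleckstrin-homology protein that shapes the actin cytoskeleton of erythroblasts and as a target of the erythropoietin pathway. Most of the others are better known from other tissues, as given with each gene.

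The probe sequences are shown because each value below is the signal of 1 such oligonucleotide of 60 bases, and for 3 genes different probes gave different answers. Positions refer to mm9, the build the array files carry. Whether they lie in coding or untranslated exons was not analysed here, so probes are printed whole only for Ankrd36, Gng13, Nacad and Plek2, and as their first 30 bases elsewhere. All are in lower case, written 5′ to 3′.
Stc1, A_55_P2805876, chr14:69659318-69659377, plus strand, first 30 bases: tggtaatgacagatgcaagttattttattt
Stc1, A_66_P113548, chr14:69659500-69659561, plus strand, first 30 bases: agcaagagataaatgagcttgccttccaaa
Podxl, A_52_P380263, chr6:31470405-31470464, minus strand, first 30 bases: tgtaaatacaagagccacatgtttatttac
Podxl, A_55_P1966239, chr6:31473453-31473512, minus strand, first 30 bases: ggatggagaagagaaaaaagatctcaagga
Gng13, A_51_P149422, chr17:25855911-25855970, plus strand, whole: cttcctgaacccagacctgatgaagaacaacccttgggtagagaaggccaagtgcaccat
Plek2, A_52_P488437, chr12:79990231-79990290, minus strand, whole: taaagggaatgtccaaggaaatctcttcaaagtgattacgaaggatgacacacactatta
Trim15, A_52_P233342, chr17:36997790-36997849, minus strand, first 30 bases: ggatttggaagggaagcaaacaaaaagctg
Nacad, A_52_P406181, chr11:6498603-6498896, minus strand, whole: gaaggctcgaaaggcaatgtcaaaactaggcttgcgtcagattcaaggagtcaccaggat
C2cd4a, A_52_P583097, chr9:67678449-67678508, minus strand, first 30 bases: cagagactcttggcccagagacacttgtag
Ankrd36, A_55_P2070316, chr11:5483975-5484034, plus strand, whole: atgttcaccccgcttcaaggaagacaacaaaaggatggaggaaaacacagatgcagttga
Ankrd36, A_51_P176202, chr11:5543813-5544933, plus strand, first 30 bases: gatggtcaccttctcactaaaatggatcgg
Ankrd36, A_55_P2726999, chr11:5545095-5545154, plus strand, first 30 bases: tagggagtccagcctgtgagtcctcacatg

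The Nacad probe covers 294 bases of the genome and 1 Ankrd36 probe, A_51_P176202, covers 1121, so those 2 probes are split in the genome. The bright Ankrd36 probe is assigned to the transcript NM_023816, while the other 2 Ankrd36 probes are assigned to XM_006514890. The second Podxl probe is assigned to a separate transcript, ENSMUST00000136877. No other probe on the array shared a stretch of 20 bases with any of the 12.

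Signal is given as a log2 level after subtracting the 75th percentile within each array, so 0 stands for that percentile and each step of 1 for a doubling. That percentile was 361 to 473 intensity units for liver and 715 to 955 for marrow. A spot is called detected here if it carries the flag for well above background, as 28013 to 34426 probes did per liver array and 32007 to 35699 per marrow array. A spot without the flag is not well above background, which leaves only an upper bound on its level. Defining markers of the labelled tissues were well above background on all 12 arrays of the tissue, for 4 of 4 hepatocyte genes in liver and for 6 of 6 erythroid, 3 of 3 B cell and 3 of 3 neutrophil genes in marrow. The marrow array of replicate 2 at 24 h stood apart in 1 respect. Its median signal over 20 hepatocyte genes was 13.2% of the liver mean, against 0.00582% to 0.0275% on the other 11 marrow arrays.

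At 0 h in marrow, C2cd4a, Nacad and Plek2 were detected on all 4 arrays and the other 5 genes on none. At 24 h all 8 genes were detected on all 4 arrays. For the 5 genes not detected at 0 h this follows in part from the choice. A probe was kept only if detected on all 4 arrays of some group, which the second probes of Stc1 and Podxl were not. At 48 h, 6 genes were detected on all 4 arrays, Gng13 on 3 and Stc1 on none. Over all 12 probes, 15 of 48 spots were detected at 0 h, 38 at 24 h and 33 at 48 h. The liver arrays gave 4, 7 and 8 detected spots of 48 at the same times, and no gene was detected on all 4 arrays of any liver group.

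**Figure D1:**
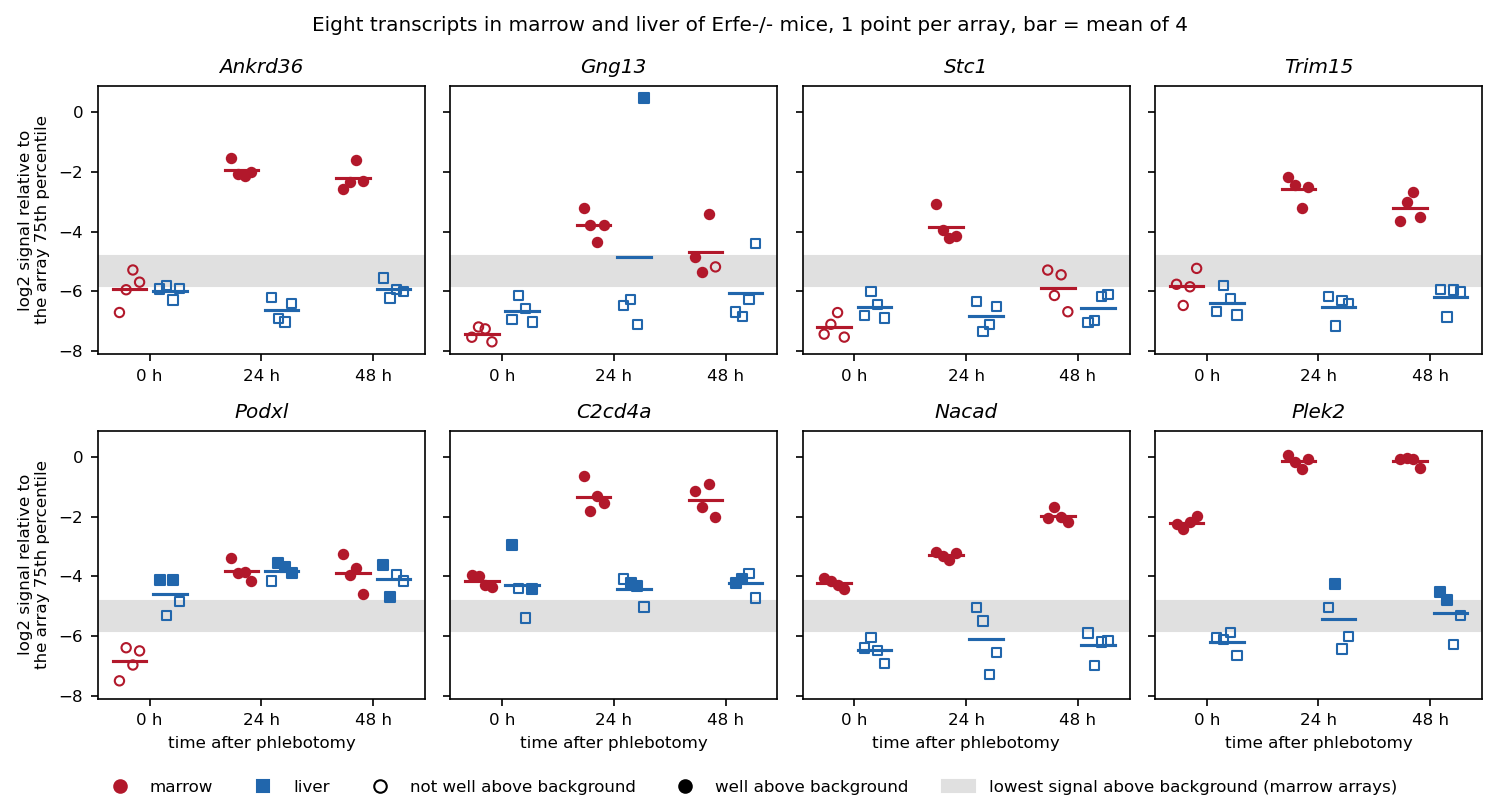
Log2 signal relative to the array's 75th percentile (vertical axis) of the main probe of each gene at 0, 24 and 48 h, for marrow (red circles) and liver (blue squares), 1 point per array, with the mean of 4 arrays as a bar. Filled points were well above background and open points were not, and the grey band spans the lowest detected signal of the marrow arrays, -5.83 to -4.83. The marrow points at 24 h lie above those at 0 h for all 8 genes, while the liver points show no such step apart from 1 Gng13 array at 0.48.

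All 4 arrays at 24 h lay above all 4 at 0 h for 8 of 8 genes, and the same held at 48 h. These counts follow from how the genes were chosen. Over the 21379 genes tested in marrow, 4.14% were separated upward in this way at 24 h and 8% at 48 h. The median change of the 8 genes was 3.14 at 24 h (range 0.94 to 3.96) and 2.68 at 48 h (range 1.31 to 3.71), beside medians of -0.02 and 0.00 over all genes tested. For genes not detected at 0 h the fitted change is not a measured ratio, so a floor-based bound, written as at least so many fold, is given as well. Each undetected array was set no lower than the lowest signal of any detected probe on that array. An undetected spot can lie above this floor, as Gng13 did on replicate 4 at 48 h (-5.18 against -5.27). The bound is therefore not strict, and it holds only under this background subtraction and scaling. In bulk marrow, more cells of a type and more RNA per cell cannot be told apart.

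Stc1 encodes stanniocalcin 1, a secreted glycoprotein known for its part in calcium and phosphate balance. Its detected probe gave -7.43, -7.10, -6.71 and -7.53 on the 4 marrow arrays at 0 h, -3.07, -3.95, -4.20 and -4.16 at 24 h, and -5.28, -6.14, -5.44 and -6.68 at 48 h. Every array at 24 h was higher than every array at 0 h or 48 h, and only the arrays at 24 h were detected. The level was at least 2.58-fold higher at 24 h than at 0 h, with a fitted change of 3.35 (SE 0.34). At 48 h it was at least 2.66-fold lower than at 24 h, with a fitted difference of -2.04 (SE 0.34). All 4 arrays at 48 h still lay above those at 0 h, by a fitted 1.31, but neither group was detected, so no fold is given. Stc1 was the only gene of the 8 whose arrays at 48 h all lay below those at 24 h, which 0.898% of all genes did.

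Podxl encodes podocalyxin, a heavily sialylated surface mucin of the CD34 family found on podocytes, endothelium and early blood cells. Its main probe gave -7.50, -6.39, -6.97 and -6.50 at 0 h, -3.39, -3.90, -3.85 and -4.15 at 24 h, and -3.25, -3.96, -3.71 and -4.59 at 48 h. The arrays at 24 and 48 h overlapped each other and lay well clear of those at 0 h. The bounds were at least 2.61-fold at 24 h and at least 2.52-fold at 48 h, with fitted changes of 3.02 and 2.97 (SE 0.30).

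Gng13 encodes a G protein gamma subunit known from taste and olfactory signalling. It gave -7.54, -7.19, -7.26 and -7.69 at 0 h, -3.21, -3.77, -4.34 and -3.76 at 24 h, and -4.84, -5.34, -3.42 and -5.18 at 48 h. Replicates 1, 2 and 4 at 48 h were lower than any array at 24 h, but replicate 3, at -3.42, lay inside the range at 24 h, so the groups overlapped. Gng13 was at least 2.71-fold higher at 24 h than at 0 h. At 48 h replicate 4 was not well above background, and with that spot at its value the ratio to the 0 h floor was 1.43, which is not called a bound here. The fitted 48 h minus 24 h difference was -0.92 (SE 0.37).

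Plek2, pleckstrin 2, had 162 to 181 intensity units at 0 h, 639 to 903 at 24 h and 642 to 798 at 48 h. Its levels were -2.24, -2.41, -2.19 and -1.99 at 0 h, 0.07, -0.18, -0.41 and -0.05 at 24 h, and -0.08, -0.02, -0.06 and -0.36 at 48 h. The arrays at 24 and 48 h overlapped fully, and all lay far above those at 0 h. Plek2 was 4.19-fold higher at 24 h and 4.22-fold higher at 48 h, changes of 2.07 and 2.08 on the log2 scale (SE 0.13). Its means were -2.21 ± 0.18, -0.14 ± 0.21 and -0.13 ± 0.16 (SD, n = 4), a step larger than the spread within any time.

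Trim15 encodes a RING-type ubiquitin ligase of the TRIM family that has been placed at focal adhesions. It gave -5.76, -6.47, -5.85 and -5.23 at 0 h, -2.16, -2.44, -3.20 and -2.49 at 24 h, and -3.64, -2.99, -2.66 and -3.51 at 48 h. Replicate 3 was the lowest array at 24 h and lay below 2 of the arrays at 48 h, so those times overlapped. The bounds against 0 h were at least 6.07-fold at 24 h and at least 3.92-fold at 48 h, and the fitted 48 h minus 24 h difference was -0.63 (SE 0.30).

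Nacad encodes a protein with the domain of the nascent polypeptide-associated complex, which binds new chains at the ribosome. Its levels were -4.06, -4.16, -4.28 and -4.42 at 0 h, -3.19, -3.30, -3.46 and -3.20 at 24 h, and -2.04, -1.68, -2.01 and -2.17 at 48 h. The 3 groups did not overlap, and each later group lay above the earlier one. Nacad was 1.92-fold higher at 24 h and 4.77-fold higher at 48 h than at 0 h, and 2.49-fold higher at 48 h than at 24 h (log2 difference 1.31, SE 0.12). It was the only gene of the 8 with all arrays at 48 h above all at 24 h, beside 2.8% of all genes. The other 6 genes overlapped between 24 and 48 h, Stc1 being the exception in the opposite direction, and the median 48 h minus 24 h difference was -0.18, against 0.03 over all genes.

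C2cd4a encodes a nuclear protein known from endothelial cells and pancreatic islets. It gave -3.95, -4.00, -4.30 and -4.37 at 0 h, -0.65, -1.82, -1.30 and -1.54 at 24 h, and -1.14, -1.66, -0.92 and -2.0 at 48 h. All 8 arrays after bleeding lay above the highest at 0 h, and the later times overlapped. C2cd4a was 7.09-fold higher at 24 h and 6.61-fold higher at 48 h (log2 2.83 and 2.73, SE 0.27). As it was detected on all 12 marrow arrays, these are ratios of detected signals and not bounds, under this background subtraction and scaling. Other background handling gave smaller ones, as listed with the alternatives below.

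Ankrd36, named for its ankyrin repeats, was measured by 3 probes. Its bright probe gave -6.71, -5.94, -5.28 and -5.69 at 0 h, -1.54, -2.08, -2.14 and -2.01 at 24 h, and -2.56, -2.34, -1.59 and -2.31 at 48 h. No array at 0 h was detected, and all 8 later arrays were, with 143 to 294 intensity units. The bounds were at least 9.61-fold at 24 h and at least 8.05-fold at 48 h, and the fitted changes were 3.96 and 3.71 (SE 0.29).

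**Figure D2:**
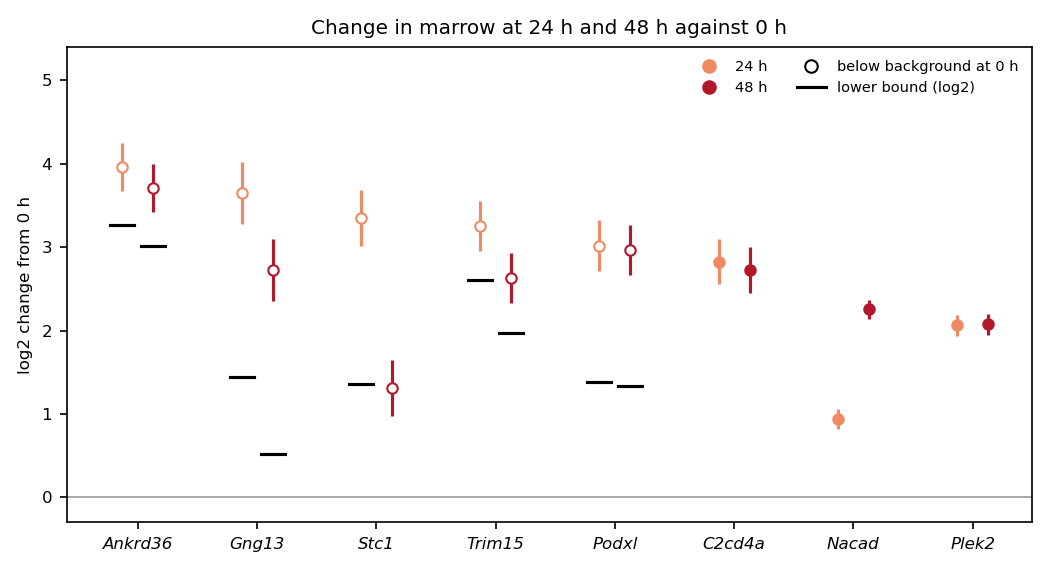
Fitted log2 change in marrow at 24 h (orange) and 48 h (red) against 0 h for each gene, with the standard error of the fit over 12 arrays as vertical lines. Open circles mark genes not well above background at 0 h, for which the black bar is the log2 of the floor-based bound (for Gng13 at 48 h, with 1 undetected spot at its value). Nacad is higher at 48 h (2.25) than at 24 h (0.94), Stc1 is lower (1.31 against 3.35), and the remaining genes stay within 1 log2 step between the times.

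The other probes of 3 genes did not all show these changes. Of the 2 dim Ankrd36 probes, A_55_P2726999 gave -5.40, -5.41, -4.62 and -6.43 at 0 h, -4.16, -4.08, -4.87 and -4.55 at 24 h, and -4.13, -4.81, -3.88 and -4.55 at 48 h. It was detected on 1, 4 and 4 arrays, and its array of replicate 3 at 0 h, at -4.62, lay inside the later ranges. A_51_P176202, split over 1121 bases, was detected on 0, 1 and 1 arrays, and its highest value was -3.18 on replicate 1 at 48 h, when all 4 of its arrays lay above those at 0 h. As most of their 0 h spots were not well above background, the size of their change cannot be set against that of the bright probe.

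The second Stc1 probe, A_66_P113548, lies on the same strand downstream of the first and was not detected on any of the 24 arrays. In marrow its means were -7.25, -6.66 and -6.98 at 0, 24 and 48 h. The second Podxl probe was detected on scattered arrays, 2, 1 and 1 of 4 in marrow. It gave -7.33, -3.52, -4.52 and -7.07 at 0 h, -6.19, -7.50, -7.82 and -2.97 at 24 h, and -7.37, -7.62, -6.83 and -4.81 at 48 h. The groups overlapped at all 3 times, with high arrays at each of them.

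**Figure D3:**
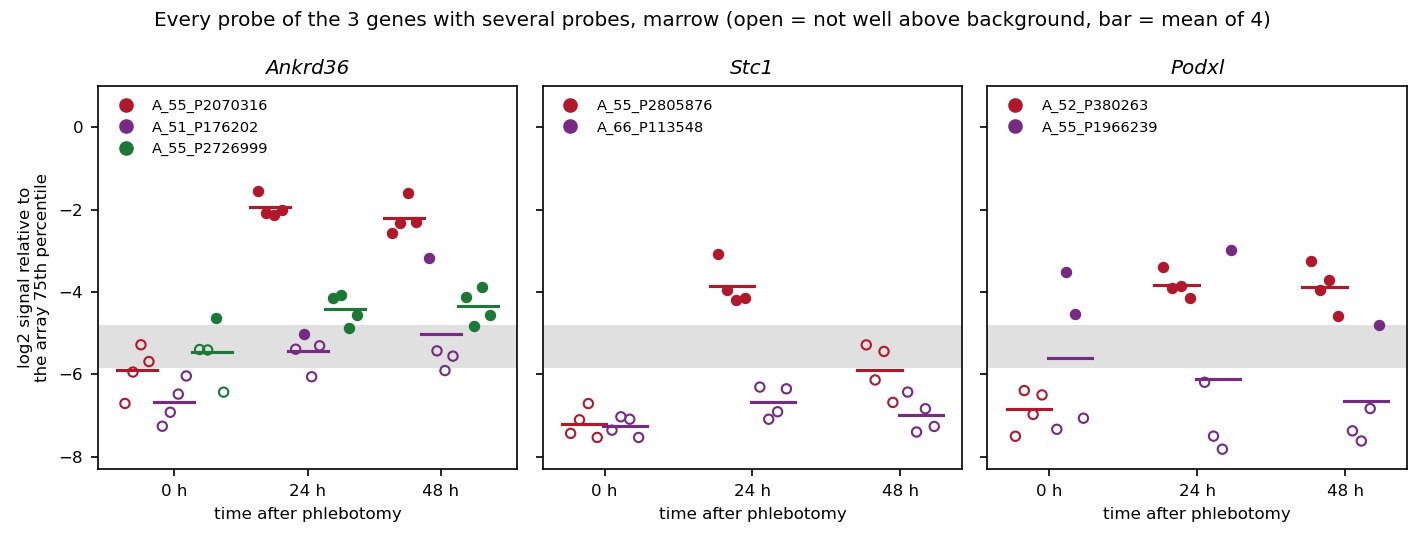
Log2 signal relative to the array's 75th percentile in marrow at 0, 24 and 48 h for all 7 probes of Ankrd36, Stc1 and Podxl, 1 point per array and the mean of 4 as a bar. Filled points were well above background, and the grey band is the range of the lowest detected signal, -5.83 to -4.83. The red main probes step up after 0 h, while the second probe of Stc1 stays under the band and the second probe of Podxl scatters between -7.82 and -2.97.

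The arrays came on 3 slides, each with every time of marrow on it, and the changes were seen within each slide. Over the 8 genes and 3 slides, 24 of 24 within-slide differences were above 0 at 24 h (0.92 to 4.78) and 24 of 24 at 48 h (0.85 to 3.77). As all arrays of each later time lay above all at 0 h, these signs were fixed in advance and only the sizes inform. With the slide as a block in the fit the median changes were 3.18 at 24 h and 2.62 at 48 h. Leaving out the marrow array that carried hepatocyte signal shifted the 24 h changes of the 8 genes by at most 0.16. Under normexp correction with an offset of 50, the median change was 1.09 at 24 h and 1.1 at 48 h, and in the authors' deposited table it was 1.62 and 1.41. All 8 genes were separated in both, except for 1 gene under normexp at 48 h. Normexp gave log2 changes at 24 h of 1.68 for Ankrd36, 1.22 for Trim15, 0.76 for Podxl, 0.81 for Stc1 and 0.95 for Gng13. Each lay below the log2 of the bound given for that gene. In the deposited table Ankrd36, Trim15, Podxl and Stc1 gave 2.32, 1.71, 1.17 and 1.31, also below, and Gng13 gave 1.54, above its bound. C2cd4a, Nacad and Plek2, detected at 0 h, also changed less than in the fit reported. With normexp they gave 1.75, 0.41 and 1.78 at 24 h and 1.70, 1.33 and 1.77 at 48 h. The deposited table gave 2.16, 0.62 and 1.89 at 24 h and 2.04, 1.61 and 1.88 at 48 h.

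In liver, where the choice of genes used no values, the 8 genes stayed dim and none passed the filter of detection on all 4 arrays of a group, so none entered the liver test. Of the 19637 genes that did, limma called 0% at 24 h, 48 h and between them, or 0 genes each, while 2142 (10.9%) at 24 h and 1266 (6.45%) at 48 h had an unadjusted p under 0.05. When dim probes were tested as well, 0 of the 8 genes passed at 24 h, 48 h or between them. Ankrd36, Stc1, Trim15 and Nacad were not detected on any of the 12 liver arrays.

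The main probe of Podxl was detected in liver on 2, 3 and 2 arrays at 0, 24 and 48 h. It gave -4.13, -5.31, -4.11 and -4.84 at 0 h, -4.16, -3.55, -3.67 and -3.90 at 24 h, and -3.61, -4.69, -3.94 and -4.16 at 48 h. The groups overlapped, with means of -4.60 ± 0.58, -3.82 ± 0.27 and -4.10 ± 0.45 (SD, n = 4). In marrow at 24 h the mean was also -3.82, each level being relative to the percentile of its own array. The second Podxl probe was detected in liver only at 48 h, at -2.08 on replicate 3 and -2.52 on replicate 4, while replicates 1 and 2 gave -6.92 and -5.77. Its spots at 0 h lay between -6.66 and -5.91, and 1 of its 4 spots at 24 h was left out as an outlier. C2cd4a was detected on 2 arrays at each time, with means of -4.29 ± 1.01, -4.42 ± 0.42 and -4.23 ± 0.36 (SD, n = 4), which differed by less than their spread. Plek2 was detected on 0, 1 and 2 liver arrays, at -4.24 on replicate 2 at 24 h and at -4.51 and -4.80 on replicates 1 and 2 at 48 h. Its liver ranges, -6.67 to -5.89 at 0 h, -6.44 to -4.24 at 24 h and -6.29 to -4.51 at 48 h, overlapped. Gng13 was detected on 1 liver array, replicate 4 at 24 h, at 0.48, whereas the other 11 liver arrays lay between -7.11 and -4.40.

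Of 44 erythroid genes, all kept in marrow, limma called 1 higher at 24 h, Tfrc, and 10 higher at 48 h, with 0 called lower at either time. Over all genes 0.552% were called higher at 24 h and 1.06% at 48 h, and 12.6% and 16% had an unadjusted p under 0.05. Those called lower were 0.463% and 0.173%. The list's median change was 0.15 at 24 h and 0.48 at 48 h, with 31 and 44 of the 44 above 0, beside medians of -0.02 and 0.00 over all genes. Tfrc, the transferrin receptor that brings iron into erythroblasts, rose by 0.80 at 24 h (SE 0.13, adjusted p 0.0142) and by 1.02 at 48 h (SE 0.13, adjusted p 0.00323). The next largest of the 10 called at 48 h were Rhag, part of the Rh complex of the red cell membrane, at 0.74, Tmcc2 at 0.71, and Add2, a membrane skeleton adducin, at 0.70. Gata1 and Klf1, master transcription factors of the lineage, changed by 0.54 (adjusted p 0.0877) and 0.49 (adjusted p 0.0992) at 48 h without passing. Alas2, the first enzyme of erythroid haem synthesis, gave -0.38 at the earlier time (adjusted p 0.354) and 0.18 at the later (adjusted p 0.614).

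The count at 48 h depended on single arrays. It fell from 10 to 1 without replicate 1, 2 or 3 at 0 h or replicate 1 or 2 at 48 h, and to 3 without replicate 1 at 24 h or replicate 4 at 48 h, and it was 1 with the slide as a block. The call of Tfrc at 48 h held in all of these, whereas at 24 h it was lost without replicate 2 or 3 at 0 h (highest adjusted p 0.0553). Within slides, the mean of the 44 genes differed from 0 h by 0.68, 0.48 and 0.16 at 48 h and by 0.26, 0.16 and -0.14 at 24 h.

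Whether a mouse with more erythroid signal also had more of the 8 transcripts was asked within each time, since the time means had entered the choice. The mean of the 44 erythroid genes ranged from 4.10 to 4.55 at 0 h, 4.20 to 4.62 at 24 h and 4.52 to 4.93 at 48 h. Deviations of each transcript from its time mean were set against deviations of this mean over the 12 marrow arrays, with an exact two-sided permutation test over all 13824 orders within times. C2cd4a, Nacad and Plek2 were detected on all 12 of these arrays, while Ankrd36, Trim15 and Podxl were not well above background on 4, Gng13 on 5 and Stc1 on 8, so part of their deviations are not measured levels. Of the 8 relations, 0 passed after adjustment over the 8. Plek2 had the highest, with r = 0.60 (permutation p = 0.0718, adjusted 0.574) and rho = 0.69 (permutation p = 0.0309, adjusted 0.247). Without the 2 arrays farthest from the median of the erythroid measure, replicate 4 at 0 h and replicate 4 at 24 h, its r was 0.43.

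The other 7 had r between -0.39 (C2cd4a, permutation p = 0.249, adjusted 0.718) and 0.32 (Trim15, permutation p = 0.359, adjusted 0.718). Their rho lay between -0.34 (C2cd4a, permutation p = 0.327) and 0.38 (Trim15, permutation p = 0.277). With the slide removed as well as the time, Plek2 had r = 0.70 (permutation p = 0.0195, adjusted 0.156). Its rho in that setting was 0.78 (permutation p = 0.00644, adjusted 0.0515). Over only the 8 arrays after bleeding, an alternative added after the data were seen, Nacad had the highest, r = 0.66 (permutation p = 0.122, adjusted 0.728). At this number of arrays, weak relations were not detectable, and even r = 0.70 did not pass. The test therefore cannot show that a relation is absent.

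**Figure D4:**
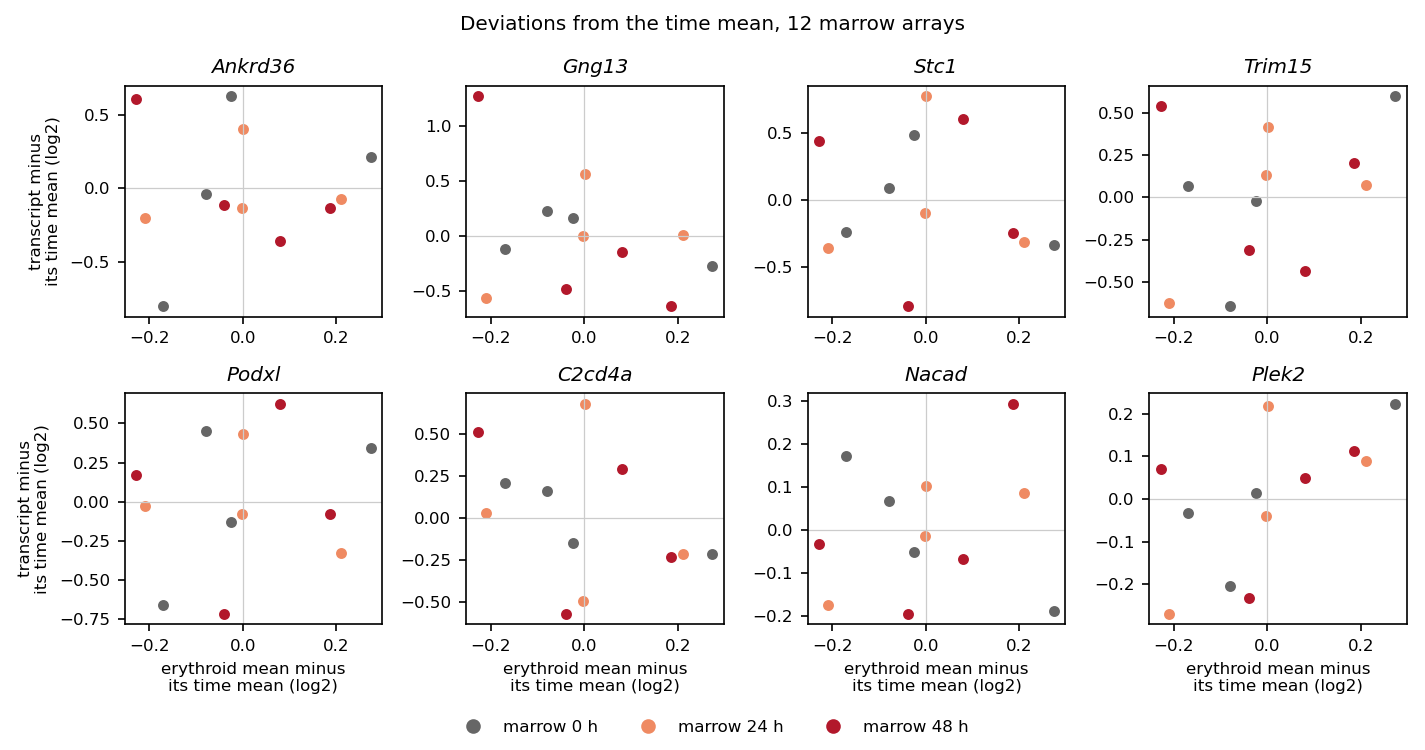
Deviation of each transcript from its time mean (vertical axis, log2) against the deviation of the mean of 44 erythroid genes from its time mean (horizontal axis, log2), over 12 marrow arrays coloured by time. Vertical scales differ between panels. The Plek2 points rise from left to right (r = 0.60), and the other panels show no relation that passed the permutation test.

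Among targets of erythropoietin and STAT5, Cish, Pim1 and Trib3 passed at both times. Of 20 genes in this list, 3 were called higher at 24 h, beside 0.552% of all genes, and 3 at 48 h, beside 1.06%, and the list's median was 0.02 and 0.10. Cish, a feedback inhibitor of cytokine receptors, rose by 2.68 at the earlier time (SE 0.15, adjusted p 9.39e-06) and 2.50 at the later (SE 0.15, adjusted p 1.35e-05). At 24 and then 48 h, Pim1, a survival kinase, rose by 1.17 and 0.96 (adjusted p 0.000816 and 0.00323), and Trib3, a pseudokinase also known from stress responses, by 2.85 and 2.97 (adjusted p 0.00484 and 0.00354). Each of these calls held without any single marrow array.

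No gene on the lists of relatives of the 8 passed the test in marrow. These lists also hold binding partners and neighbours in the TRIM cluster. From 7 lists of relatives holding 36 genes, 28 were kept in marrow, and limma called 0 at 24 h and 0 at 48 h, with 3 and 3 at an unadjusted p under 0.05. Over all genes 0.552% were called higher and 0.463% lower at 24 h, and 1.06% and 0.173% at 48 h. Those with an unadjusted p under 0.05 were 12.6% and 16%. At these shares a list of 28 would hold few or no calls. For Gng13, the 13 kept G protein beta and gamma subunits had medians of -0.11 and -0.08. For Trim15, its neighbour in the TRIM cluster Trim10, an erythroid gene, gave 0.08 (adjusted p 0.862) at the earlier time and 0.68 (adjusted p 0.0596) at the later. Trim26 and Trim39 gave -0.12 and -0.04 at 48 h. For Podxl, the 7 genes of its mucin family and of the ezrin and Slc9a3r proteins that anchor it had medians of -0.02 and -0.16. Cd34 changed by -0.15 and -0.13.

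Naca, the ubiquitous alpha subunit related to Nacad, changed by 0.12 and 0.14, and the 3 complex genes had medians of 0.12 and 0.14. Plek, the pleckstrin of platelets and leukocytes, changed by -0.02 at both times. C2cd4c was the only kept relative of C2cd4a, at -0.49 and -0.49 (SE 0.96). Stc2, the paralogue of Stc1, was not kept, with 4 detected spots over the 12 marrow arrays. In liver 28 relatives were kept, limma called 0 at either time, as over all genes, and 4 and 4 had an unadjusted p under 0.05. Over all genes tested in liver, 10.9% and 6.45% had such a p.

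Among markers of other marrow cells, the calls were all toward lower levels. Of 11 macrophage genes, 1 was called lower at 24 h, Hmox1, the haem-degrading enzyme, at -1.31 (adjusted p 0.00683), and 0 at 48 h. Without adjustment 8 and 6 of the 11 had a p under 0.05, and 8 had all arrays at 24 h below all at 0 h, as 4.13% of all genes did. The mean of that list ran from 3.03 to 3.29 at 0 h, 2.55 to 2.80 at 24 h and 2.66 to 2.95 at 48 h. In the T and NK list, 2 of 8 genes were called lower at 24 h, Cd3d (-0.64) and Cd8a (-1.09), though leaving out replicate 1, 2, 3 or 4 at 0 h or replicate 4 at 24 h ended both calls. Cd3d was also lost without replicate 1 at 24 h or replicate 1 or 4 at 48 h. Both calls ended without the filter on dim probes and with only the compared times in the fit, and that of Cd3d also with the slide as a block, with median scaling or with every kept probe. For B cells 0 of 11 genes were called, with medians of -0.65 and -0.43 and 7 and 3 genes at an unadjusted p under 0.05, beside 12.6% and 16% of all genes. The B cell list mean ran from 1.25 to 1.96, 0.78 to 1.37 and 0.61 to 1.70 at the 3 times. The part of these cells in the rise of the 8 genes was not tested.

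Limma called 0 genes at either time in the neutrophil (12 kept), megakaryocyte (12), endothelial (11), progenitor (9), stromal and bone (10), hepatocyte (11) and hypoxia (14) lists. Their counts at an unadjusted p under 0.05 were 0, 0, 2, 1, 2, 0 and 1 at 24 h, and 0, 0, 0, 0, 1, 0 and 2 at 48 h. Over all genes 12.6% and 16% had such a p. The endothelial list, of interest for Podxl and C2cd4a, had medians of 0.01 and 0.05. At 24 h, 2 of its 11 genes had all arrays above all at 0 h, beside 4.14% of all genes. At 48 h 0 did, beside 8%. The part of endothelial cells in the rise of the 8 genes was not tested. Of 11 kept genes of the amino acid and protein stress response, 2 were called higher at 24 h, beside 0.552% of all genes, and 3 at 48 h, beside 1.06%. Mthfd2, a mitochondrial folate enzyme, rose by 1.09 and 0.88 (adjusted p 0.000663 and 0.00256), and Asns, asparagine synthetase, rose by 0.94 and 1.1 (adjusted p 0.0182 and 0.00735). The Asns call at 24 h ended without replicate 1 or 2 at 0 h or replicate 1, 2 or 4 at 24 h. The third gene at 48 h was Ddit3 (0.58, adjusted p 0.0331), whose call ended in 8 of 12 fits without 1 array, those without replicate 1, 2, 3 or 4 at 0 h, replicate 4 at 24 h, or replicate 1, 2 or 4 at 48 h.

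**Figure D5:**
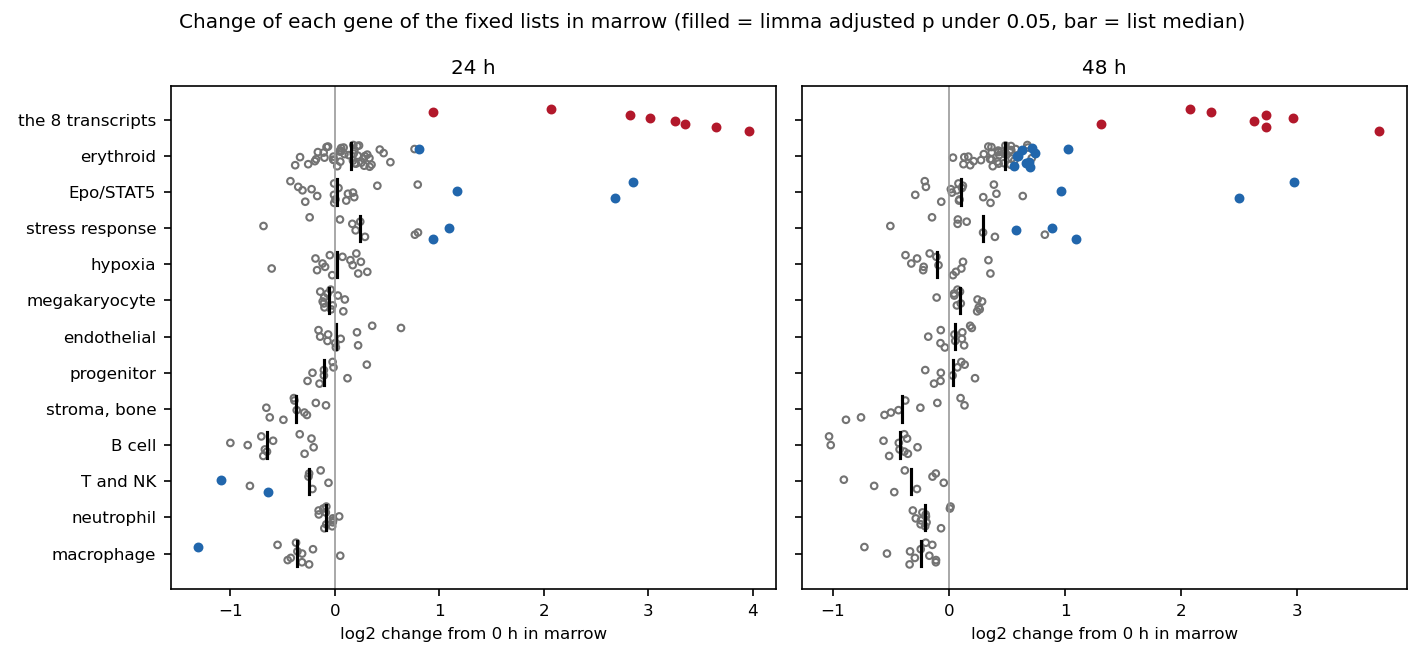
Log2 change in marrow against 0 h of every kept gene of the 12 lists drawn, which leave out the hepatocyte genes and the relatives, at 24 h (left) and 48 h (right), 1 point per gene, with list medians as black bars. Blue points had a limma adjusted p under 0.05, and the 8 transcripts are in red, without a test. Beside the 8, only Cish and Trib3 of the genes drawn lie above 2, while the erythroid list shifts from a median of 0.15 to 0.48 with most genes under 1.

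Genes with a course most like each of the 8 over the 12 marrow arrays were ranked by Pearson's r among 14166 named genes. These values describe shared steps between times on the same arrays and carry no test. Arhgdig was among the top 3 for Ankrd36 (r = 0.98), Gng13 (0.98), Podxl (0.96) and C2cd4a (0.96). Cish was among them for Plek2 (0.99), Ankrd36 (0.98) and Trim15 (0.98), and Pim1 led for Trim15 (0.98). Cited4, a transcriptional co-activator, was listed for C2cd4a (0.97), Podxl (0.96) and Plek2 (0.98). The remaining genes of the top 3 were Agfg1 for Ankrd36 (0.97), Fabp5 (0.98) and Mgp (0.97) for Gng13, Ptgr2 for Trim15 (0.97), Atp1b2 for Podxl (0.98), Hs6st2 for C2cd4a (0.96) and Mt2 for Plek2 (0.98).

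The lists of Stc1 and Nacad held none of these names. Stc1 went with Crybb3 (0.96), Ecscr (0.95) and Ramp2 (0.94), which changed by 1.68, 0.68 and 0.69 at 24 h and by 0.74, 0.36 and 0.23 at 48 h. Nacad went with Mmel1 (0.98), Ctsf (0.97) and Nrip3 (0.95), which changed by 0.67, 0.59 and 0.67 at 24 h and by 1.48, 1.34 and 1.27 at 48 h. Among the 8 themselves, r ran from 0.29 for Stc1 with Nacad to 0.98 for Ankrd36 with Plek2.

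To place the 8 among other dim genes, all named genes whose mean at 0 h was no higher than that of Plek2 (-2.21) were counted, 2914 in all. Of these, 13 showed a rise at 24 or 48 h of 2.08 or more, the larger of the changes of Plek2 and the smallest such value among the 8. All 8 reach this cut by construction, so the count is a description. Limma called 3 of the 13 higher: Arhgdig, Cda and Hs6st2. Cda, cytidine deaminase, rose by 2.90 and 2.72 (adjusted p 0.000529 and 0.000695). Hs6st2, a heparan sulphate sulphotransferase, rose by 2.49 and 2.0 (adjusted p 0.000816 and 0.0034), from a level not detected at 0 h. Arhgdig rose by 3.01 and 2.46 (adjusted p 6.09e-05 and 0.00026).

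The other genes of the 13 were not called, and their arrays differed in pattern. Igfbp2, Serpina3n and Avpr1a changed by 2.59, 2.57 and 2.37 at 24 h (adjusted p 0.0567, 0.0739 and 0.303). For each of these, all arrays at 24 h lay above all at 0 h. F2, Slc27a2, Cyp2e1 and Serpinf2 were not separated in this way at 24 or 48 h. Itih3 and Ambp, plasma proteins of hepatocytes, had fitted changes of 3.49 and 2.76 at 24 h and adjusted p of 0.429 and 0.61. Their values on replicate 2 at 24 h, the array with hepatocyte signal, were 4.83 and 6.91, whereas the other 3 arrays at 24 h lay between -4.58 and -3.96 for Itih3 and between -3.93 and -3.06 for Ambp. Myh4, a fast muscle myosin, changed by 2.67 at 24 h (adjusted p 0.141) with arrays from -4.27 to -1.44. These all lay above those at 0 h, the highest of which was -4.79.

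Promoter sequences were at hand for 6 of the 8 genes, in 8 windows from 250 bases before to 50 after a gene start (RefSeq, GRCm38.p6), and were searched on both strands for 5 short motifs. Those were AGATAA, the core bound by GATA factors, TTCNNNGAA, bound by STAT factors, CCNCNCCC, bound by KLF factors, ACGTG, the hypoxia element, and TGATGNAA, the amino acid response element. The motifs were chosen with results of these data known. Over 32851 promoters of the same length, 11.2%, 8.30%, 49.5%, 19.6% and 3.97% held them. Of the 6 genes, 0 held AGATAA, 1 TTCNNNGAA, 4 CCNCNCCC, 2 ACGTG and 1 TGATGNAA. Trim15 held both single matches, Ankrd36 and C2cd4a held ACGTG, and Ankrd36, Plek2, Gng13 and Trim15 held CCNCNCCC.

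The 250 bases before the start are printed for Trim15 and Ankrd36, which held the most motifs, and for Plek2, whose relation to the erythroid genes was the highest, with every match in capitals. In Ankrd36 adjoining matches of CCNCNCCC share 1 base, and the palindrome CACGTG counts as a match on each strand. A match describes the letters only.
Trim15, chr17:36867211-36867460, minus strand: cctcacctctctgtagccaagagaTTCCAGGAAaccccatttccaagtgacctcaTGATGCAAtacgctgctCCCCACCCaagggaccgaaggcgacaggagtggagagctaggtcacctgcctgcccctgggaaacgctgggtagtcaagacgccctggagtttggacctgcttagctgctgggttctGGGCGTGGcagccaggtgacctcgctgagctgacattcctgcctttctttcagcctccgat
Ankrd36, chr11:5569434-5569683, plus strand: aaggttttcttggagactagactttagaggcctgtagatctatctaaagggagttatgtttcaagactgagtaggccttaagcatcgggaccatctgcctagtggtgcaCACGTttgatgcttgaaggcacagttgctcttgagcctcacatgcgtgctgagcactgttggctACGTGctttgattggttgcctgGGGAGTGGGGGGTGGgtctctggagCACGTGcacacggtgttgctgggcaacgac
Plek2, chr12:78906939-78907188, minus strand: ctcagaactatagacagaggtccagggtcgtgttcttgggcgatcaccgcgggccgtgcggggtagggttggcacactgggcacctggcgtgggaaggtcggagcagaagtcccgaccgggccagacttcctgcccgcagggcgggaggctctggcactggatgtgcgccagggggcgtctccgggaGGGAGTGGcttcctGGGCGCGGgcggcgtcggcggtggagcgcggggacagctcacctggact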

How the data were processed

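RNA of 24 samples was measured on single-colour Agilent arrays, 4 per tissue and time, as the sample titles give them. Per the labels' protocols, total RNA was extracted with Trizol and chloroform and Cy3-labelled. Spot intensity was deposited per array from Agilent Feature Extraction 10.10.1.1. Per the file headers, this processed intensity is background-subtracted and not normalised between arrays. A further deposited table holds log2 values, whose making is not given in the sources used here, and which served only as an alternative.

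Processed intensity was converted to log2 and the 75th percentile of each array taken off. The 3671 control spots and 90 to 438 spots per array marked as outliers were left out, which removed 1 spot of the second Podxl probe in liver at 24 h, and 0 spots were saturated. Spots of a probe were averaged. Gene names came from the accession for 32994 probes, a symbol for 10224, a synonym for 520 (GRCm38.p6) and the file itself for 12867. A probe was kept in a tissue where it was well above background on all 4 arrays of a group, and the brightest kept probe stood for a gene. Changes were fitted with limma 3.58.1 (lmFit and eBayes, R 4.3.3) over the 12 arrays of a tissue, with p-values adjusted by Benjamini-Hochberg across that tissue's genes and called at 0.05. The fit was tested on simulated data. For 1 value, an exact test of 4 arrays against 4 cannot give a p below 0.0286. Precision is limited by the number of arrays.

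The 8 genes, the gene lists and the tests were chosen with earlier results of these data known. Named genes are the 8 with all probes, their relatives, the 3 named genes with the highest r to each, the 5 largest rises among dim genes, Gata1, Klf1, Alas2, Tfrc, Cish and Trib3, and up to 4 called genes per list and direction. Hs6st2 and the rest of the dim genes with as large a rise were also named after their values were seen. Alternatives covered scaling, background correction, the deposited log2 table, the filter on dim probes, every kept probe, slide, replicate number, the times in the fit and each array left out.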

Additional observations from a re-analysis of the deposited data

Results flagged for a closer look

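One value among 54 groups of 4 arrays stood apart from the others, by a gap to the nearest array that took up most of the group's range. It was Gng13 (A_51_P149422) on the liver array of replicate 4 at 24 h, at 0.48, or 584 intensity units, while the other 3 arrays of that group lay between -7.11 and -6.28. The gap was 0.89 of the range. No marrow array reached that level with this probe, where the highest was -3.21. Gng13 has no second probe on the array, so the value has no check within the sample. Chance flags about 1 in 20 such groups.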

How the results depend on the processing

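Of 340 changes of the 8 genes at 24 or 48 h under alternatives, 340 were above 0, 309 moved by less than the replicate spread and 31 by more. All 31 came from normexp and the deposited table, where only Plek2 at 24 h in the deposited table moved by less. Most of the 309 came from leaving out single arrays, 12 fits per gene and time. The genes were chosen for their rise, so these signs are no independent support. The median change fell from 3.14 to 1.09 with normexp and 1.62 in the deposited table at 24 h, and from 2.68 to 1.1 and 1.41 at 48 h. Leaving out each array gave 2.98 to 3.25 and 2.37 to 2.81. Requiring detection on all arrays left 3 genes, all 3 separated at both times, with a median of 2.07 at 24 h. At 48 h, 7 genes were separated with normexp. With only the 2 times compared, Gng13 and Stc1 did not pass the detection filter at 48 h, and the 6 genes kept were all separated. In the remaining alternatives all 8 were separated. Genes called in marrow at 24 h, 217 in the fit reported (118 higher, 99 lower), were 142 with median scaling (92 higher, 50 lower), 69 without the filter, and 72 to 213 without 1 array (110 without replicate 1, 135 without 2 and 139 without 4 of 24 h, and 72, 100 and 133 without replicates 2, 3 and 4 of 0 h). At 48 h, 264 were called, with 123 under median scaling, 100 without the filter, 116 with the slide as a block and 98 to 380 without 1 array (119, 110 and 111 without replicates 1, 2 and 3 of 0 h, 171 and 170 without 1 and 4 of 24 h, and 136, 98 and 133 without 1, 2 and 4 of 48 h). Same-numbered marrow arrays of different times had correlations of deviations from -0.25 to 0.17, with 5 of 12 over 0.1, so the numbers were not taken to pair samples. With the replicate number as a block, 125 were called at 24 h and 98 at 48 h, and the erythroid count at 48 h was 3. That block also ended the calls of Cd8a and Asns at 24 h and Ddit3 at 48 h. That erythroid count, 10, was 3 with median scaling, 3 with quantile normalization, 5 in the deposited table, 1 without the filter, 1 with the slide block, 4 with only the 2 times compared and 1 to 15 without 1 array. At 24 h the count of 1 was 0 without the filter and 0 to 1 without 1 array. In liver, leaving out an array gave 0 to 2 calls at 24 h (2 without replicate 4 of 24 h), 0 to 9 at 48 h (9 without replicate 1 of 48 h) and 0 to 1 between them (1 without replicate 4 of 24 h), none of them in the 8 genes. The cause of these shifts was not tested, except that the stricter filter tests fewer genes. Relations to the erythroid mean passed for 0 of 8 genes in all 8 alternatives run. Low signal limits 5 of the 8 genes to bounds at 0 h.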
